A study of Homo sapiens with 12 samples.

Results

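The G1 cyclins and the kinases they activate were followed through BRG1 depletion in LNCaP cells as 8 genes, namely the D-type cyclins CCND1, CCND2 and CCND3, their partner kinases CDK4 and CDK6, the E-type cyclins CCNE1 and CCNE2, and their partner kinase CDK2. They were taken by symbol from the 63568 genes of the deposited expression table, and all 8 were found there. Of these, 7 had a TPM value (transcripts per a fixed total, adjusted for transcript length) of at least 1 in at least 2 libraries and were tested, while CCND2 stayed below that limit. LNCaP is an androgen-sensitive cell line derived from a lymph node metastasis of prostate cancer, and BRG1 is the ATPase of the SWI/SNF chromatin remodelling complex, encoded by SMARCA4. The cells received a non-targeting siRNA pool (si-NT) or either of 2 single siRNAs against SMARCA4, all with the same transfection reagent, and were harvested at 72 h, or at 144 h after being transfected again and split. Each siRNA was sequenced in 2 libraries per time point, 12 in all, so that 4 BRG1 depleted libraries were compared with 2 si-NT libraries at each time point. The siRNAs are called 2 and 3 here, as in the table. The titles number them otherwise and the numberings could not be matched, and the labels of 1 depleted library of 72 h (replicate 1) name both siRNAs. This leaves the BRG1 depleted group as it is, but the values for single siRNAs at 72 h rest on the table's own siRNA numbers. All libraries came from 1 cell line, the labels do not say whether replicates were separate cultures, and the p-values therefore measure the spread between these libraries only.

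Cyclins carry no kinase activity of their own and work by binding and activating a cyclin-dependent kinase. In early G1 the D-type cyclins, which are induced by growth signals, bind CDK4 or CDK6 and begin to phosphorylate the retinoblastoma protein, which releases E2F factors. The E-type cyclins are themselves E2F targets and activate CDK2 at the entry into S phase, and inhibitor proteins of the INK4 and CIP/KIP families hold these kinases back. In prostate cancer cells the androgen receptor acts on this same G1 machinery.

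SMARCA4 was measured first as the check of the knockdown. It stood at 97.0 and 73.4 TPM in si-NT at 72 h and at 94.5 and 107 TPM at 144 h. In the BRG1 depleted libraries it lay between 17.5 and 21.7 TPM at 72 h and between 11.4 and 17.4 TPM at 144 h, so the groups did not overlap (log2 fold change -2.07 ± 0.16 (SE), adjusted p = 0.000538 at 72 h, and -2.66 ± 0.16, adjusted p = 1.01e-05 at 144 h). Sequencing depth cannot be read from TPM and the counting error behind a value is therefore not known, and 14706 to 15355 genes reached 1 TPM in a library. Of 9 luminal prostate markers fixed for LNCaP, all passed the filter, and KLK3, which encodes prostate-specific antigen, lay between 241 and 841 TPM. Of 8 markers of basal, stromal, immune or neuroendocrine cells found in the table, 2 passed the filter and 1 (COL1A2) was listed at 0 throughout, and the 8 together summed to 3.46 to 9.92 TPM in any library. ERCC spike-in RNA made up 0.805% to 1.97% of the TPM total. At 144 h its share was 0.805% and 1.34% in the si-NT libraries and 1.04% to 1.97% in the depleted libraries. This spread within groups enters every value scaled to the spike-ins. Scaling to the spike-ins moved the median log2 fold change of all tested genes from 0.06 to -0.12 at 72 h and from 0.03 to -0.31 at 144 h, and changes below are on the TPM scale unless stated. In bulk RNA, fewer cells of a kind, such as cells in S phase, and less RNA per cell cannot be told apart.

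In si-NT cells the members spanned a wide range of levels (TPM, n = 4 libraries over both time points). CDK4 was the most abundant at 341 ± 18.0 TPM (SD), above 97.8% of the tested genes, and CCND1 followed at 118 ± 12.7 TPM. CDK2 (54.7 ± 15.3 TPM) and CCND3 (35.3 ± 6.13 TPM) came next, and the ranges of this pair overlapped, with CDK2 at 32.0 to 64.0 TPM and CCND3 at 26.4 to 39.7 TPM. CCNE1 (16.3 ± 2.87 TPM) lay above CCNE2 (9.34 ± 2.97 TPM) without overlap. CDK6 was low at 1.16 ± 0.196 TPM, and CCND2 was near the floor of the table at 0.01 to 0.03 TPM. Apart from CDK2 and CCND3, no neighbours in this order overlapped in the si-NT libraries. The G1 kinase and cyclin RNA of these cells was thus mostly CDK4 and CCND1: over all 12 libraries CDK4 made up 99.4% to 99.7% of the summed CDK4 and CDK6 TPM, and CCND1 75.6% to 86.9% of the summed D-type cyclin TPM.

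**Figure D1:**
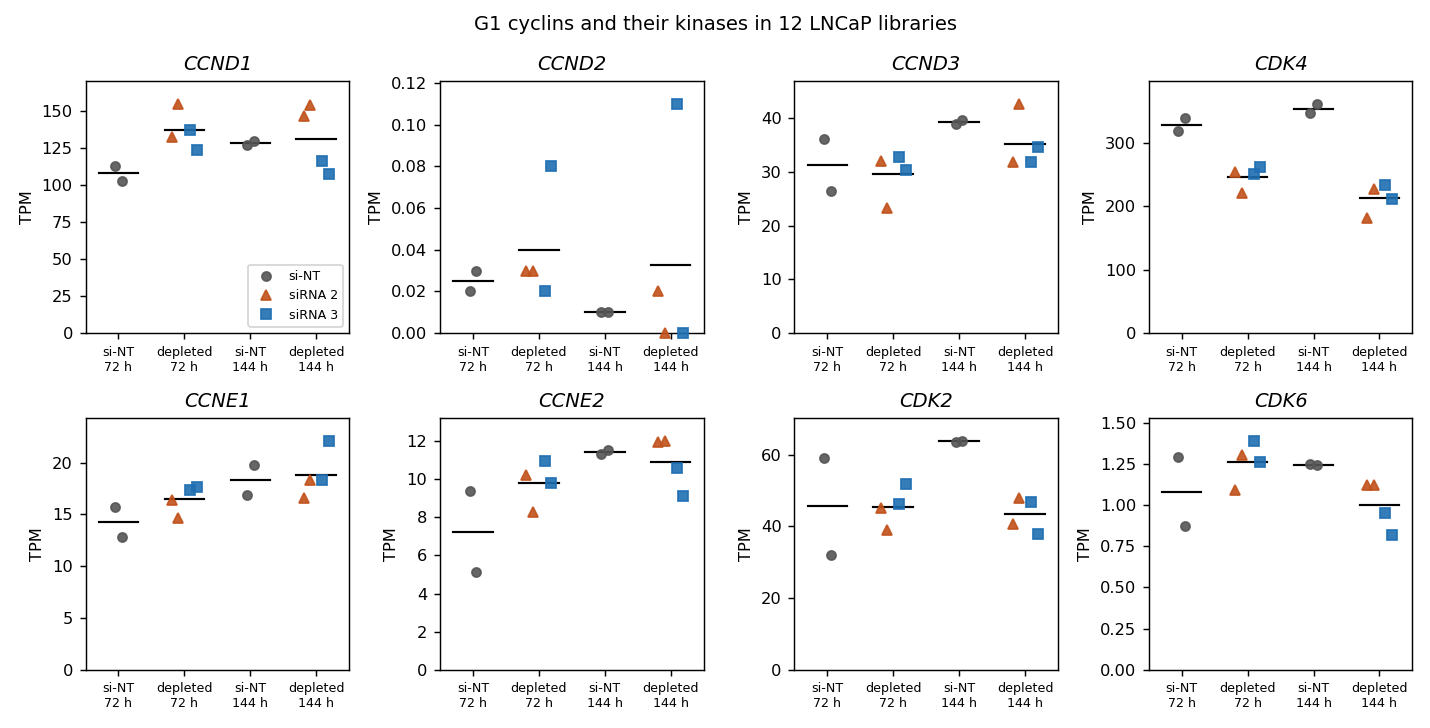
TPM (linear axes from 0) of each of the 8 genes in the 12 libraries, with grey circles for si-NT, orange triangles for siRNA 2, blue squares for siRNA 3 and a line at each group mean. CDK4 lies between 318 and 361 TPM in si-NT and between 180.4 and 262 TPM in all 8 BRG1 depleted libraries, while CDK2 in si-NT at 72 h is split between 32.0 and 59.2 TPM.

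CDK4 (ENSG00000135446.12, chr12:58141510-58149796 on the minus strand, GRCh37) encodes the kinase that D-type cyclins activate, and it fell after BRG1 depletion at 144 h. In si-NT it was measured at 318 and 338 TPM at 72 h and at 346 and 361 TPM at 144 h. At 72 h it stood at 253 and 220.3 TPM with siRNA 2 and at 249.8 and 262 TPM with siRNA 3, and at 144 h at 180.4 and 227 TPM with siRNA 2 and at 233 and 211 TPM with siRNA 3. Every depleted library lay below every si-NT library of either time point. How many of all tested genes are separated in this way is not given here. The shares further below use only the 2 controls matched in time, so this separation of CDK4 is a description. At 144 h the mean was 213 ± 23.4 TPM (SD, n = 4) against 353 ± 10.5 TPM (n = 2), 39.8% lower, with a log2 fold change of -0.74 ± 0.11 (SE, 95% interval -0.97 to -0.50, limma adjusted p = 0.00098). At 72 h the mean was 246 ± 18.1 TPM against 328 ± 14.8 TPM, and the log2 fold change of -0.41 ± 0.11 (95% interval -0.65 to -0.18) missed the threshold (limma adjusted p = 0.0926). With the 4 si-NT libraries taken as 1 group, the value at 72 h passed (-0.47, adjusted p = 0.00844). Two-sided exact permutation tests of TPM against the 4 si-NT libraries gave p = 0.0286 at each time point, the smallest that 4 against 4 can give, and against only the 2 controls of its own time point the smallest possible p is 0.133. These permutation tests are 2 of 16, over 8 genes and 2 time points, and their p-values were not adjusted for that number. Both tests against 4 si-NT libraries use the same controls, 2 of them from the other time point, so they are not independent. The change at 144 h differed from that at 72 h by -0.32 ± 0.15 (95% interval -0.66 to 0.01, adjusted p = 0.433), so a larger fall at 144 h was not shown.

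Each siRNA taken alone gave the same direction. Both siRNAs were compared with the same si-NT libraries of a time point, so these comparisons are not independent of each other. At 144 h CDK4 fell with siRNA 2 (log2 fold change -0.80 ± 0.12, adjusted p = 0.00258) and with siRNA 3 (-0.67 ± 0.12, adjusted p = 0.00669), where 21.3% and 20.2% of all tested genes were called. The siRNA 3 value missed the threshold without si-NT 144 h replicate 2 (adjusted p = 0.0578) and without siRNA 3 144 h replicate 2 (adjusted p = 0.057), and the siRNA 2 value with spike-in scaling (adjusted p = 0.16). At 72 h the values were -0.47 ± 0.12 (adjusted p = 0.0874) and -0.36 ± 0.12 (adjusted p = 0.241), and 0 of the 7 members were called with either siRNA, where 1.57% and 0.655% of all tested genes were. The unadjusted p was under 0.05 for 2 members with siRNA 2 and for 3 with siRNA 3. For both siRNAs together, the call at 144 h held with spike-in scaling (-1.14, adjusted p = 0.0368) and with each library left out in turn (-0.78 to -0.66, adjusted p from 0.000797 to 0.0217). TSPAN31 and MARCHF9 overlap CDK4 on the opposite strand. They were far less abundant, at 9.66 to 21.5 TPM and 13.4 to 20.4 TPM, and TSPAN31 moved the other way at 144 h (0.65 ± 0.17, adjusted p = 0.0155). The libraries were stranded, but whether the counting used strand is not given in the sources used here, so reads of the overlapping stretches may be shared.

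The promoter of CDK4 is shown because it belongs to the member that was called. The 250 bases before its RefSeq transcription start (chr12:57752311-57752560, GRCh38.p14, minus strand, printed 5′ to 3′ as the gene reads) hold CACGTG, the E-box letters known to be bound by MYC and related factors, 3 times, and these are in capitals.
CDK4: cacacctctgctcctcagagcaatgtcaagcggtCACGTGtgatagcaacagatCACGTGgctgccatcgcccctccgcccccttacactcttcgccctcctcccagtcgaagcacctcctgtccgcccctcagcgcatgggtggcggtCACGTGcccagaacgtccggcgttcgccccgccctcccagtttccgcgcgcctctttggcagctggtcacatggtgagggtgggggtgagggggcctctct
The first base of each match lies 216, 196 and 101 bases before the start. The letters read the same on both strands. At least 1 match was found in 6.34% of the 35116 RefSeq promoter windows of this length, and 3 or more in 0.08%. The other 6 member windows in the RefSeq table, 3 for CCND3, 1 for CCNE1 and 2 for CDK6, held none. CCND1, CCND2, CCNE2 and CDK2 had no window there and were not searched for any of the letters. The E-box was chosen for the search after the sequences had been read. E2F-type letters (TTTCCCGC, TTTCGCGC, TTTGCCGC or TTTGGCGC), AP-1 letters (TGACTCA or TGAGTCA) and the cAMP response element TGACGTCA, searched on both strands, were in 0 of the 7 member windows and in 2.79%, 4.20% and 1.65% of all windows. Binding to these letters was not measured in the data used here.

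CDK6 (ENSG00000105810.5, chr7:92234235-92465887, minus strand), the second partner of the D-type cyclins, contributed little RNA and was not called at either time point. It was measured at 1.29 and 0.87 TPM in si-NT at 72 h and at 1.25 and 1.24 TPM at 144 h. The depleted libraries held 1.09, 1.30, 1.39 and 1.26 TPM at 72 h and 1.12, 1.12, 0.95 and 0.82 TPM at 144 h, in the order siRNA 2 then siRNA 3. At 144 h all 4 lay below both si-NT libraries, and at 72 h the groups overlapped. The log2 fold changes were 0.13 ± 0.15 (95% interval -0.20 to 0.45, adjusted p = 0.773) and -0.17 ± 0.15 (-0.49 to 0.16, adjusted p = 0.449). At this level the pseudocount of 1 shrinks any change.

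CCND1 (ENSG00000110092.3, chr11:69455924-69469242, plus strand) encodes cyclin D1, the D-type cyclin these cells express most. In si-NT it was at 113 and 103 TPM at 72 h and at 127 and 130.02 TPM at 144 h. At 72 h it was at 133 and 155 TPM with siRNA 2 and at 137 and 124 TPM with siRNA 3, all above both si-NT libraries of that time point. At 144 h siRNA 2 gave 147 and 154 TPM, above si-NT, and siRNA 3 gave 116 and 107 TPM, below si-NT. The log2 fold change of the combined group was 0.34 ± 0.14 at 72 h (95% interval 0.03 to 0.65, adjusted p = 0.298) and 0.01 ± 0.14 at 144 h (-0.30 to 0.32, adjusted p = 0.967), and its sign at 144 h turned with spike-in scaling (-0.39) and with median-of-ratios size factors (-0.02). The siRNAs differed from each other at 144 h by -0.43 ± 0.10 (siRNA 3 against siRNA 2, 95% interval -0.66 to -0.20), which had an unadjusted p of 0.00212 and an adjusted p of 0.143. In that comparison 0 of 7 members were called by limma, 1 had an unadjusted p under 0.05, and 0.331% of all tested genes were called. At 72 h the siRNAs differed in CCND1 by -0.14 ± 0.10 (-0.37 to 0.09), 0 of 7 members were called, 0 had an unadjusted p under 0.05, and 0.141% of all tested genes were called.

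CCND3 (ENSG00000112576.8, chr6:41902672-42018095, minus strand), the second D-type cyclin in level, showed no call. It was measured at 36.1 and 26.4 TPM in si-NT at 72 h and at 38.9 and 39.7 TPM at 144 h. The depleted libraries ranged from 23.4 to 32.7 TPM at 72 h and from 31.9 to 42.7 TPM at 144 h, overlapping si-NT at both. The log2 fold changes were -0.07 ± 0.17 (95% interval -0.43 to 0.29, adjusted p = 0.896) and -0.16 ± 0.17 (-0.52 to 0.20, adjusted p = 0.52). CCND2 (ENSG00000118971.3, chr12:4378937-4414519, plus strand) was listed at 0.02 and 0.03 TPM in si-NT at 72 h and at 0.01 TPM in both at 144 h. In the depleted libraries it was listed at 0.02 to 0.08 TPM at 72 h and at 0 to 0.11 TPM at 144 h, with 2 libraries at 0. No fold change is given for it.

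Set against each other, D-type cyclin RNA and CDK4 and CDK6 RNA changed their proportion. The summed D-type cyclin TPM was 129 to 149 in si-NT and 154 to 178 in depleted cells at 72 h, and 166 to 169.8 and 142 to 197 at 144 h. The ratio of this sum to that of CDK4 and CDK6 was 0.467 and 0.381 in si-NT at 72 h and 0.478 and 0.469 at 144 h. In the depleted libraries it was 0.586 to 0.804 at 72 h and 0.634 to 0.985 at 144 h, above all si-NT libraries. With siRNA 2 at 144 h the ratio was 0.985 and 0.863, and with siRNA 3 it was 0.634 and 0.668. CDK4 made up 99.4% to 99.7% of the sum of CDK4 and CDK6, so the ratio carries the CDK4 values already given and is not a separate result. At 144 h the D-type cyclin sums of the groups overlapped. The share of other gene pairs with such a separation is not given here. A ratio within a library is unaffected by scaling. It is given as a description with no test because the sums were formed from the members.

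**Figure D2:**
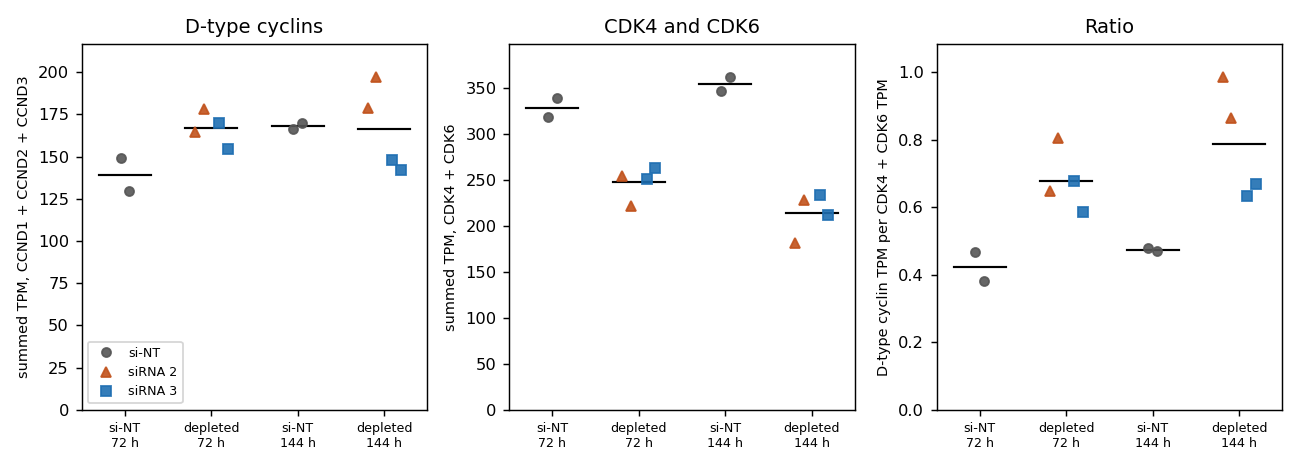
Summed TPM of CCND1, CCND2 and CCND3 (left), summed TPM of CDK4 and CDK6 (middle) and the ratio of the left to the middle sum (right) in each of the 12 libraries, with a line at each group mean and symbols by siRNA. The ratio is 0.381 to 0.478 in si-NT and 0.586 to 0.985 in the BRG1 depleted libraries.

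CCNE1 (ENSG00000105173.9, chr19:30302898-30315219, plus strand) and CCNE2 (ENSG00000175305.12, chr8:95891998-95908906, minus strand) encode the E-type cyclins that activate CDK2. CCNE1 was at 15.8 and 12.8 TPM in si-NT at 72 h and at 16.8 and 19.8 TPM at 144 h. The depleted libraries held 14.6 to 17.7 TPM at 72 h and 16.6 to 22.1 TPM at 144 h, and the groups overlapped. Its log2 fold change was 0.20 ± 0.13 at 72 h (95% interval -0.09 to 0.49, adjusted p = 0.545) and 0.04 ± 0.13 at 144 h (-0.26 to 0.33, adjusted p = 0.872), and the latter turned to -0.35 with spike-in scaling. CCNE2 was at 9.38 and 5.12 TPM in si-NT at 72 h and at 11.3 and 11.5 TPM at 144 h. The depleted libraries held 8.26 to 10.96 TPM at 72 h and 9.14 to 12.03 TPM at 144 h, again overlapping si-NT. Its log2 fold change was 0.43 ± 0.19 at 72 h (0.02 to 0.85, adjusted p = 0.326) and -0.07 ± 0.19 at 144 h (-0.48 to 0.35, adjusted p = 0.834). The value at 72 h rested on the low si-NT library and was 0.05 without si-NT 72 h replicate 2 and 0.81 without replicate 1. INTS8 (51.4 to 70.4 TPM) and NDUFAF6 (20.4 to 35.6 TPM) overlap CCNE2 on the opposite strand and were more abundant than it. The strand setting of the counting bears on CCNE2 in the same way as on CDK4.

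CDK2 (ENSG00000123374.6, chr12:56360565-56366573, plus strand) encodes the kinase that the E-type cyclins activate. It was measured at 59.2 and 32.0 TPM in si-NT at 72 h and at 63.6 and 64.0 TPM at 144 h. At 72 h siRNA 2 gave 45.2 and 38.9 TPM and siRNA 3 gave 46.3 and 51.8 TPM, between the si-NT libraries. At 144 h siRNA 2 gave 40.8 and 47.9 TPM and siRNA 3 gave 46.9 and 38.01 TPM, all below both si-NT libraries. The mean at 144 h was 43.4 ± 4.79 TPM (SD, n = 4) against 63.8 ± 0.276 TPM (n = 2), with a log2 fold change of -0.55 ± 0.20 (95% interval -0.98 to -0.12) that missed the threshold (limma adjusted p = 0.0633). It passed when the 6 libraries of 144 h were fitted alone (adjusted p = 0.0156) and when either si-NT library of 72 h was left out (adjusted p = 0.0104), and its adjusted p ranged from 0.0104 to 0.287 over all alternatives. At 72 h the log2 fold change was 0.06 ± 0.20 (-0.38 to 0.49, adjusted p = 0.934), and it was -0.38 without si-NT 72 h replicate 2 and 0.49 without replicate 1. In si-NT 72 h replicate 2 the 24 E2F target genes listed below summed to 1135 TPM against 1739 TPM in replicate 1, and 7 genes of the later cyclins and CDK1 to 419.8 against 757 TPM. PMEL, which overlaps CDK2 on the opposite strand, was at 1.88 to 4.68 TPM.

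In counts, 0 of 7 members were called by limma at 72 h, 3 had an unadjusted p under 0.05 (CCND1, CCNE2 and CDK4), and 1.68% of all tested genes were called (0.557% lower, 1.13% higher). At 144 h 1 of 7 members was called, lower, where 10.8% of all tested genes were called lower, 13.6% higher and 24.4% in either direction, and with 7 members a single call is no more than a description of CDK4. Depleted libraries all below si-NT were found for 1 member at 72 h (CDK4), where 6.93% of all tested genes showed this, and for 3 at 144 h (CDK2, CDK4 and CDK6), where 22.5% did. Depleted libraries all above si-NT were found for 1 member at 72 h (CCND1) and 0 at 144 h, against 16.3% and 26.1% of all tested genes. The change at 144 h was compared with that at 72 h for 7 members, of which 0 were called and 0 had an unadjusted p under 0.05, where 0.0184% of all tested genes were called. In si-NT cells alone, all 7 had higher means at 144 h than at 72 h. Of these 0 were called, 3 had an unadjusted p under 0.05 (CCNE1, CCNE2 and CDK2), and 0% of all tested genes were called, with 671 at an unadjusted p under 0.05. For these 3 genes the lowest si-NT value was that of 72 h replicate 2, at 12.8, 5.12 and 32.0 TPM. Replicate 1 of 72 h was at 15.8, 9.38 and 59.2 TPM. In BRG1 depleted cells between the time points, 0 members were called, 1 (CDK4) had an unadjusted p under 0.05, and 4.27% of all tested genes were called.

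**Figure D3:**
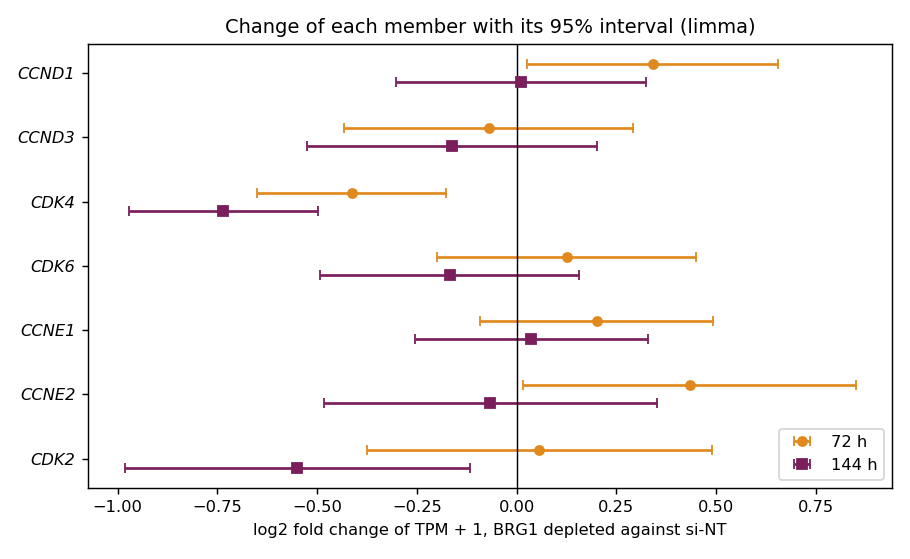
Log2 fold change of TPM + 1 in BRG1 depleted against si-NT libraries for the 7 tested members, with 95% intervals from limma, at 72 h (orange circles) and 144 h (purple squares). CDK4 lies at -0.41 and -0.74, CDK2 at 0.06 and -0.55, and the intervals of CCND3, CCNE1 and CDK6 include 0 at both time points.

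Over the 12 libraries the members did not move as 1 block. Pearson's r of log2(TPM + 1) between pairs of members ran from -0.43 (CCND1 and CDK4) to 0.68 (CCND3 and CDK2), given as a description, since the libraries share treatments and the values share a total. The genes most like CDK4 among protein-coding genes with a mean of at least 5 TPM were PPP1R14C (r = 0.97), MRPS2 (0.96) and GLUL (0.96). Those most like CDK2 were CHAF1B (0.97), which encodes a subunit of the chromatin assembly factor that deposits histones behind replication forks, MCM6 (0.97), a subunit of the replicative helicase, and LAS1L (0.95). ANKLE2 (0.95) was most like CCND1, SLC25A11 (0.94) CCND3, PSMD2 (0.92) CCNE1, ZC3H10 (0.92) CCNE2 and TMED8 (0.94) CDK6.

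The pathway around these genes was described from fixed lists. Of 8 CDK inhibitor genes, 0 were called at 72 h, and 1 rose and 1 fell at 144 h, where 24.4% of all tested genes were called, a share near that of the list. CDKN2B, which encodes an INK4 inhibitor of CDK4 and CDK6, was at 0.99 and 0.48 TPM in si-NT at 144 h and rose to 2.24 to 6.02 TPM (log2 fold change 1.50 ± 0.28, adjusted p = 0.00323). With spike-in scaling the value was 1.25 (adjusted p = 0.0525). CDKN2A, which encodes INK4A and ARF, was at 27.04 and 30.7 TPM and fell to 16.5 to 21.2 TPM (-0.59 ± 0.15, adjusted p = 0.0134). With spike-in scaling it was at -0.98 (adjusted p = 0.0737), and 0 of the 8 genes were called.

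CDKN1A, the CIP/KIP inhibitor of cyclin E and CDK2 complexes, was singled out after its values were seen because the siRNAs moved it apart. In si-NT it was at 73.1 and 71.0 TPM at 72 h and at 73.4 and 70.7 TPM at 144 h. With siRNA 2 it was at 34.1 and 45.0 TPM at 72 h and at 47.2 and 45.5 TPM at 144 h. With siRNA 3 it was at 119 and 106 TPM at 72 h and at 111 and 145 TPM at 144 h, so that si-NT lay between the siRNAs at both time points. The difference between siRNAs was 1.50 ± 0.15 on the log2 scale at 72 h (adjusted p = 0.00367) and 1.43 ± 0.15 at 144 h (adjusted p = 0.00716). In the comparisons with si-NT, the changes were -0.86 (adjusted p = 0.0313) and 0.63 (adjusted p = 0.106) at 72 h and -0.62 (adjusted p = 0.0189) and 0.81 (adjusted p = 0.00769) at 144 h, for siRNA 2 and siRNA 3. For the combined group CDKN1A was not called (0.09 ± 0.54, adjusted p = 0.923 at 144 h). These values are RNA, and the study saw no rise of p21, the protein that CDKN1A encodes, by Western blot at 144 h. The difference between siRNAs at 72 h kept its call with each library left out. At 144 h it missed the threshold with spike-in scaling (0.97, adjusted p = 0.289) and without siRNA 2 replicate 1 (adjusted p = 0.064), siRNA 2 replicate 2 (adjusted p = 0.134) or siRNA 3 replicate 2 (adjusted p = 0.0703), all of 144 h. The call against si-NT for siRNA 2 at 72 h was lost in 9 of the 12 fits that left out 1 library, all but those without siRNA 2 72 h replicate 2 or either siRNA 3 library of 144 h. At 144 h the calls against si-NT were lost for siRNA 2 without any 1 of the si-NT or siRNA 2 libraries of that time point, and for siRNA 3 without si-NT replicate 2 (adjusted p = 0.0611) or siRNA 3 replicate 2 (adjusted p = 0.062). Spike-in scaling ended all 3 calls against si-NT, with -1.14 (adjusted p = 0.224) for siRNA 2 at 72 h, and at 144 h -0.79 (adjusted p = 0.258) for siRNA 2 and 0.17 (adjusted p = 0.685) for siRNA 3. The call for siRNA 2 at 72 h was also lost with no filter (adjusted p = 0.0658), without the trend (adjusted p = 0.0513), with a replicate block (adjusted p = 0.05) and with the fold limit of 1.5 on the log2 scale.

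Of 24 E2F target genes of S phase entry, 0 were called at 72 h by limma, where 1.68% of all tested genes were, and 1 had an unadjusted p under 0.05. Of the 24 values at 72 h, 23 were negative, with a median log2 fold change of -0.20 against 0.06 for all tested genes. The list summed at 72 h to 1739 and 1135 TPM in si-NT replicates 1 and 2 and to 986 to 1268 TPM in the depleted libraries. Replicate 2 lay within the depleted range, so the summed fall at 72 h depends on replicate 1. At 144 h 22 of the list fell, where 10.8% of all tested genes were called lower. The median over the list was then -0.94 against 0.03 for all tested genes. CDC6, which loads the replicative helicase at origins, was at 39.7 and 49.6 TPM in si-NT and fell to 12.7 to 20.7 TPM (-1.26 ± 0.21, adjusted p = 0.0018). TK1, the thymidine kinase of nucleotide salvage, was at 260.1 and 296 TPM and fell to 94.6 to 179 TPM (-1.22 ± 0.20, adjusted p = 0.00187). CDT1, a licensing factor that works with CDC6, was at 23.9 and 29.1 TPM and fell to 8.35 to 16.4 TPM (-1.21 ± 0.24, adjusted p = 0.00426). MCM6 and SLBP were not called. The count of 22 came down to 10 without si-NT 144 h replicate 1, to 4 without si-NT 144 h replicate 2 and to 14 with spike-in scaling, while all 24 values stayed negative with that scaling. The study examined CDC6, CDT1, CDC45, CHEK1 and MCM and ORC genes of this list in the same cells, so its direction is not independent evidence. It also reported less MCM5, CDC6, ORC6 and CHK1 protein by Western blot. By flow cytometry it found more cells in G1 and fewer in S phase at 144 h. The E-type cyclins, which are E2F targets too, had values of 0.04 (CCNE1) and -0.07 (CCNE2) at the same time point.

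At 144 h, where 10.8% of all tested genes were called lower, 9 of 18 genes for pocket proteins, E2F and DP factors and their partners fell and 0 rose. They included E2F2 (-0.93 ± 0.26, adjusted p = 0.025), E2F8 (-0.87 ± 0.28, adjusted p = 0.0454) and E2F7 (-0.85 ± 0.21, adjusted p = 0.0148), of which E2F2 encodes an activating E2F and the other two encode repressors. With spike-in scaling 2 of the 18 were called lower. Of the 6 tested genes for later cyclins and CDK1, 3 fell, namely CCNB2 (-1.20 ± 0.19), CCNA2 (-1.05 ± 0.25) and CCNB1 (-0.92 ± 0.16), which encode cyclins of S phase and mitosis. Of 8 genes for CDK activation and inhibitory phosphorylation, 2 fell, the phosphatases CDC25A (-0.94 ± 0.25) and CDC25C (-0.78 ± 0.19), and all 8 values were negative. With spike-in scaling CDC25C missed the threshold (adjusted p = 0.0582), and 10.8% of all tested genes were called lower on the TPM scale, so 2 of 8 is given as a description. Of 13 genes for the turnover of G1 cyclins and the CDKN1B protein, 4 fell and 1 rose, against 24.4% of all tested genes called. With spike-in scaling 1 of the 13 was called lower (CKS1B) and 0 higher. SKP2 (-0.60 ± 0.13) and CKS1B (-1.16 ± 0.28), which act together in the ubiquitin ligase that targets the CDKN1B protein, fell with CKS2 (-0.76 ± 0.22), and AMBRA1, whose product directs D-type cyclins to degradation, rose from 9.45 and 9.56 TPM to 14.3 to 14.8 TPM (0.56 ± 0.12, adjusted p = 0.00599). The fourth gene to fall was CUL1 (-0.25 ± 0.08), a ligase scaffold. With spike-in scaling the adjusted p was 0.0771 for SKP2, 0.0541 for CKS2 and 0.211 for CUL1.

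Of 13 other cyclin and kinase genes, CCNC fell (-0.44 ± 0.11) and CDK14 and CDK3 rose at 144 h, a share near the 24.4% called among all tested genes. CCNC missed the threshold with spike-in scaling (-0.83, adjusted p = 0.0977). CDK14, which encodes a kinase that binds cyclin Y, was called at both time points. It was the 1 gene of all these pathway lists called at 72 h, where 1.68% of all tested genes were called, and is given as a description. It was at 9.63 and 9.93 TPM in si-NT and at 13.4 to 16.0 TPM in depleted cells at 72 h (0.56 ± 0.11, adjusted p = 0.0277), and at 11.9 and 11.7 TPM and at 19.1 to 23.3 TPM at 144 h (0.74 ± 0.11, adjusted p = 0.000833). CDK3 was at 5.99 and 4.95 TPM in si-NT and at 7.25 to 8.68 TPM in depleted cells at 144 h (0.47 ± 0.14, adjusted p = 0.0301). With spike-in scaling AMBRA1 (0.18), CDK3 (0.11) and CDK14 (0.36 at 144 h, 0.38 at 72 h) kept a positive value and were not called. Of the luminal markers, KRT8, a keratin of luminal epithelium, rose at 144 h (0.56 ± 0.08, adjusted p = 0.00109) but was at 0.16 (adjusted p = 0.754) with spike-in scaling, 0 fell, and the part of these markers in the other values was not tested.

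The list counts at 144 h leaned on both control libraries of that time point, as did the calls over all genes, which went from 24.4% to 10.8% without si-NT 144 h replicate 1 and to 7.05% without replicate 2. Without replicate 1, 1 of the 18 pocket protein and E2F genes was called lower, with 3 of 6 later cyclin genes, 0 of 8 CDK activation genes and 2 of 13 turnover genes. Without replicate 2 these counts were 0, 2, 0 and 0. CDKN2A and CDKN2B missed the threshold without si-NT 144 h replicate 2 (adjusted p = 0.145 and 0.0588), and AMBRA1 without either (up to 0.0611). E2F8 was called in 3, CUL1 in 5 and E2F2 and CDK3 in 8 of the 12 fits that left out 1 library. The calls of CDK4, CDC6, TK1, CCNB1, CCNB2, CDK14 and KRT8 at 144 h were kept in all 12, though those of CDK14 and KRT8 were not kept with spike-in scaling. CDK14 at 72 h was called in 5 of 12, and missed the threshold without either control of 72 h (adjusted p up to 0.148 over these fits).

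**Figure D4:**
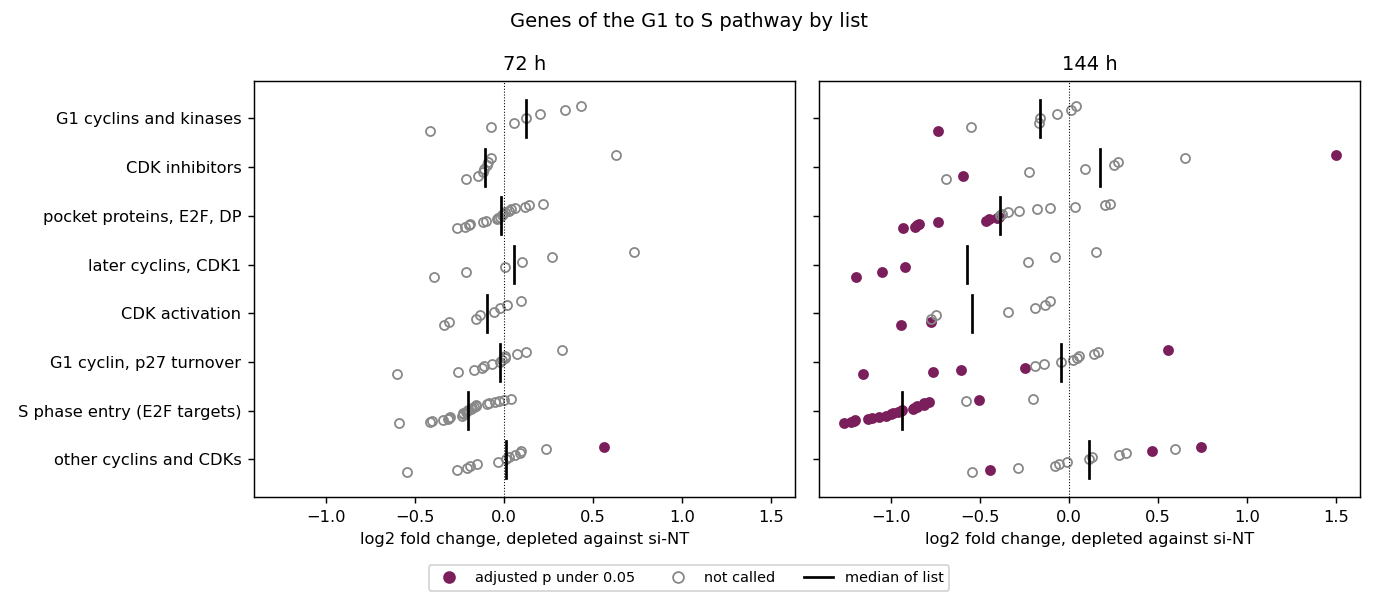
Log2 fold change in BRG1 depleted against si-NT libraries for each tested gene of the 8 lists, at 72 h (left) and 144 h (right), with filled purple points for genes at an adjusted p under 0.05, open points for the rest and a black line at each list's median. At 144 h the E2F targets centre on -0.94 and the G1 cyclins and kinases on -0.16, and at 72 h CDK14 is the 1 filled point.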

How the data were processed

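RNA-seq was carried out on 12 LNCaP libraries. Per the methods and processing notes, the authors used Trim Galore 0.11.2, aligned reads to hg19 with STAR 2.4.0j, counted them with featureCounts, normalised counts with ERCC spike-ins and determined TPM on GENCODE v19. The authors deposited TPM with 2 decimals. The TPM of every library, spike-ins included, add up to the same total, so the spike-in normalisation is not kept in this scale and read depth is unknown. Symbols and GRCh37 coordinates came from GENCODE release 44 lifted to GRCh37, and promoter sequences from RefSeq on GRCh38.p14.

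Values were taken to log2(TPM + 1), and 16337 genes that reached 1 TPM in 2 or more libraries were fitted with limma 3.58.1 (trended eBayes, R 4.3.3) in 4 groups, or 6 groups for single siRNAs. Such fold changes understate the change of low genes. P-values were adjusted by Benjamini-Hochberg over all tested genes, and an adjusted p under 0.05 was called. Genes of the lists were named where they had the 3 largest called changes per direction, and CDKN1A, CUL1, MCM6, SLBP, KLK3 and COL1A2 were added after their values were seen. The members and lists were chosen with earlier results of these data known. The procedure was also run on simulated data with independent noise and the same shift of a gene in all depleted libraries. Such data cannot show how it behaves where 1 siRNA or 1 control library differs. PECAM1, 1 of 9 markers of other cells, had no matching row. Alternatives were a pseudocount of 0.1, spike-in and median-of-ratios scaling, other filters and limits, a replicate block, other groupings and each library left out. The alternatives for the pathway lists, CDKN1A and CDK4 with single siRNAs were chosen after seeing the data. The result for 1 luminal marker is not reported here.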

Additional observations from a re-analysis of the deposited data

Results flagged for a closer look

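Among the 4 BRG1 depleted libraries of a time point, 4 of 60 sets of values (30 genes at 2 time points) had 1 library far from the other 3, where chance gives about 1 in 20. CCND2 at 72 h was listed at 0.08 TPM in siRNA 3 replicate 2 and at 0.02 to 0.03 TPM in the others, all near the floor of the table. CDC6 at 144 h was at 12.7 TPM in siRNA 3 replicate 2 and at 19.4 to 20.7 TPM in the others. CDT1 at 72 h was at 17.7 TPM in siRNA 3 replicate 1 and at 12.8 to 13.2 TPM in the others. E2F2 at 72 h was at 3.43 TPM in siRNA 2 replicate 2 and at 5.13 to 5.22 TPM in the others.

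CDKN1A differed between the siRNAs by a test of the difference itself. It was higher with siRNA 3 than with siRNA 2 by 1.50 on the log2 scale at 72 h and by 1.43 at 144 h, in all 4 libraries against all 4. The siRNAs lowered SMARCA4 by amounts that differed by -0.14 ± 0.19 at 72 h (adjusted p = 0.889) and -0.17 ± 0.19 at 144 h (adjusted p = 0.738).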

How the results depend on the processing

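Leaving aside the fits without 1 library, 274 values kept their direction and side of the threshold, 2 newly passed it, 16 no longer did, 8 changed sign and 5 counts moved by over 1.5 times. With spike-in scaling, CDK2 at 72 h was -0.14 and CCNE1 and CCND1 at 144 h were -0.35 and -0.39. Relative to the median of all genes under that scaling these were -0.02, -0.03 and -0.08. With median-of-ratios size factors, CDK2 at 72 h was -0.0096 and CCND1 at 144 h -0.0228. With si-NT of both time points combined, CDK2 at 72 h was -0.21, CCND3 at 144 h 0.0071 and CCNE2 at 144 h 0.25. The causes were not tested. Members called at 144 h numbered 1, against 0 with the study's fold limit of 1.5 on the log2 scale and 2 with the libraries of 144 h alone. Members called at 72 h numbered 0, against 1 (CDK4) with si-NT combined. E2F targets called lower numbered 22, against 14 with spike-in scaling, 0 with the fold limit and 4 to 23 with 1 library left out.

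With 1 library left out, members called at 144 h numbered 1 to 2, with CDK2 as the second when either si-NT library of 72 h was left out. The log2 fold change at 72 h ranged from -0.29 to 0.15 for CCND3, -0.0207 to 0.27 for CDK6 and -0.38 to 0.49 for CDK2. At 144 h it ranged from -0.0731 to 0.15 for CCNE1, -0.0731 to 0.10 for CCND1 and -0.11 to 0.0097 for CCNE2. Where a si-NT library was left out, the lone control was assumed to vary like the other groups.

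Equal replicate numbers showed no common pairing over all groups. The 15 correlations of replicate differences between groups ran from -0.23 to 0.30 and 2 exceeded 0.1. With 1 difference per group, they cannot decide whether some of the groups were paired. With a replicate block, CDK4 at 144 h was -0.74 (adjusted p = 0.00191) and the counts of members called were 0 at 72 h and 1 at 144 h. CDK6 was untested with a mean of at least 5 TPM. The precision of CCND2 and CDK6 is limited by their low levels, and 2 control libraries per time point limit all comparisons.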
